A study of Macaca mulatta with 6 samples.

Results

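The genes described here encode splicing factors and RNA helicases, measured in plasma RNA of 2 rhesus macaques that the labels call A and B. They were chosen by symbol alone, as all genes whose name begins with SF3A, SF3B, SNRP, SRSF, PRPF, HNRNP or U2AF, or with DDX, DHX or RBM and a digit. This gave 155 gene identifiers with 153 symbols in 9 subfamilies, out of 35432 genes in the authors' summed table, of which 24186 had a symbol. All 155 carry the symbol of a protein-coding gene, and 16836 genes of the table do. Plasma was separated on a gradient into a lipoprotein, an extracellular vesicle (EV) and a protein fraction, with 1 library per fraction and animal, or 6 libraries in all. EVs are small membrane particles that cells shed into body fluids. Each library, from either animal, came from material treated with proteinase K, RNase and DNase, and the labels give no age, sex or stress history. The gene counts used are those of the EV library of each animal and, for each animal, the authors' sum over libraries they do not name. With 1 column per animal, no comparison had replicates and no test was run.

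Splicing removes introns from precursor messenger RNA and is carried out by the spliceosome, which is assembled from small nuclear ribonucleoprotein particles (snRNPs) and many further proteins. SF3A and SF3B proteins belong to the U2 snRNP, SNRP genes encode Sm ring and other snRNP proteins, PRPF proteins act mostly in the U4/U6.U5 tri-snRNP, and U2AF recognises the end of the intron. SRSF and HNRNP proteins bind precursor RNA and guide the choice of splice sites, and RBM genes encode a mixed group of RNA-binding proteins. DDX and DHX proteins are helicases, named after the DEAD and DEAH letters of a conserved motif, that remodel RNA in splicing, ribosome assembly, export, translation, decay and virus sensing. Most of these genes are expressed in nearly all cells.

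The libraries had 913091 to 3612560 input reads, but few gene counts. Total gene counts were 10397 for EV library A, 2842 for EV library B, 62794 for the sum of A and 54534 for that of B. For a gene at 0, the limit of 3 counts allows a share of up to 0.00478% in the sum of A, 0.0055% in that of B, 0.0289% in the EV library of A and 0.106% in that of B. These limits and all intervals below are for counting error only, at the 95% level, and are too narrow where counts are PCR copies. Markers of other sources had at most 3 counts each in a sum. Of 19 blood cell identifiers 1 had a count in either animal (CD14, 2 in A and 1 in B), of 11 hepatocyte identifiers 1 had (TF, 1 and 1) and of 17 EV protein marker identifiers 4 had in A (23.5%) and 2 in B (11.8%), led by CD9 with 3 in each. For all protein-coding genes these shares were 18.7% and 14.8%. Their part in the results was not tested. In plasma, fewer cells that release RNA and less RNA from each of them cannot be told apart.

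Most splicing and helicase genes had no count. In the sum of animal A, 32 of the 155 had at least 1 count, or 20.6%. This compares with 13.3% of all genes with a symbol and 18.7% of those that are protein-coding. In the sum of animal B, 16 had a count, or 10.3%, against 10.5% of genes with a symbol and 14.8% of protein-coding ones. At this minimum of 1 count, the share detected was thus a little above that of protein-coding genes in A and below it in B. Thinning the sum of A to the total of B left an expected 29.8 members detected (19.2%), and 17.2% of protein-coding genes. The median summed count was 0 among the members and among all protein-coding genes, in both animals. A count in both sums was found for 13 members, 19 had one in A only, 3 in B only and 120 in neither. Members seen only in A were 54.3% of those detected, against 33.7% of the detected protein-coding genes.

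Counts per detected member were low. Of the 32 members detected in the sum of A, 16 had exactly 1 count (50%), against 58.5% of detected protein-coding genes. In B this was 6 of 16 (37.5%), against 60.1%. At least 10 counts were reached by 3 members in A (1.94%, with 1.4% of protein-coding genes) and by 1 in B (0.645%, with 1.16%). The members together had 114 counts in A, or 0.182% of the sum (0.15% to 0.218%). In B they had 46, or 0.0844% (0.0618% to 0.112%). All 16836 protein-coding genes, of which the members are 155, held 58.2% of the sum of A and 55.7% of that of B. The ratio of the members' shares, A over B, was 2.15 (1.52 to 3.1), or 1.74 (1.21 to 2.53) without SF3B3, the member with the most counts. These intervals treat each count as a separate observation and the sums as independent, and whether the sums share a library was not tested. They do not measure variation between animals, so no difference between animals is shown. The top 3 genes of each sum held 43% of the members' counts in A and 47.8% in B, so these totals rest on few genes.

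Shares detected per subfamily are read beside the 18.7% of protein-coding genes in A and 14.8% in B, and several lay near these. The DHX helicases had the highest share among the subfamilies with more than 3 genes, with 9 of 16 detected in A (56.2%) but 3 of 16 in B (18.8%). The RBM genes had 9 of 34 in A (26.5%) and 3 of 34 in B (8.82%). The DDX helicases had 5 of 36 (13.9%) and 4 of 36 (11.1%). The PRPF genes had 2 of 12 in each sum (16.7%). The SF3A and SF3B genes had 2 of 8 in A and 1 of 8 in B, and the U2AF genes had 1 of 3 in each. HNRNP genes had 2 of 21 in A (9.52%) and 1 of 21 in B (4.76%), SNRP genes 2 of 13 (15.4%) and 0 of 13, and SRSF genes 0 of 12 and 1 of 12. These are shares of small lists with no replicate, so they describe these columns and no subfamily is shown to differ from another.

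**Figure D1:**
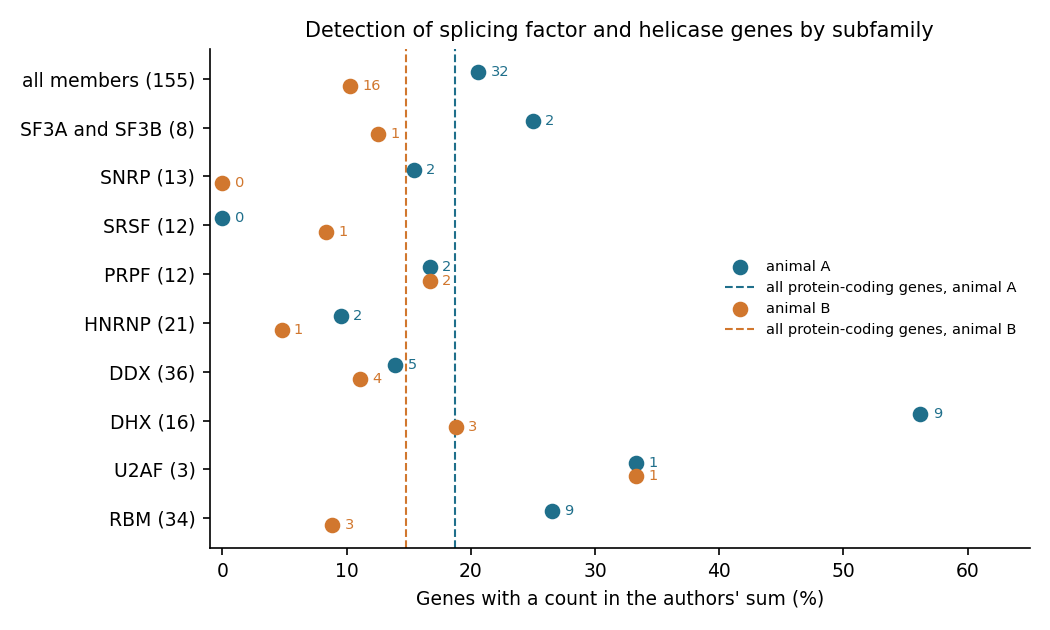
Percent of genes with at least 1 count in the authors' sum, for all members and each subfamily (number of genes in brackets), in animal A (blue) and animal B (orange), with the number detected beside each point. Dashed lines mark all protein-coding genes, 18.7% in A and 14.8% in B. DHX helicases stand highest in A at 56.2% and lie at 18.8% in B, while SRSF genes lie at 0 in A and SNRP genes at 0 in B.

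Among the members that encode snRNP proteins, the leading gene was seen in a single library. SF3B3 (ENSMMUG00000017812), a large subunit of the SF3b complex that helps the U2 snRNP bind the branch site, had 22 counts in the sum of A and 0 in that of B. All 22 lay in the EV library of A, where they made up 0.212% of counts (0.133% to 0.32%), and the EV library of B had 0. Its share of the EV counts was thus 2-fold higher in A with the count of 0 set to the limit of 3, leaving out the counting error of the 22. No other SF3B gene had a count in either sum, SF3B1, the subunit that contacts the branch site, included. SF3A2, a subunit of SF3a, had 2 counts in each sum and 0 in both EV libraries. RefSeq places 2 small nucleolar RNA genes within the span of SF3B3, and their part in its counts was not tested.

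SNRPA1 (ENSMMUG00000053633), the U2 snRNP protein A′, had 16 counts in the sum of A (0.0255%, 0.0146% to 0.0414%) and 0 in that of B, a share at least 4.63-fold higher in A. None of these counts came from the EV library. SNRPA, a protein of the U1 snRNP, had 2 counts in A and 0 in B. The Sm ring genes found among the members, such as SNRPB, SNRPD1, SNRPD2, SNRPD3, SNRPE and SNRPG, had no count. The symbol SNRPF is absent from the members, so no value is given for it. SNRPC and SNRPD2 each stand for 2 gene identifiers, all of them at 0.

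U2AF1 (ENSMMUG00000022769), the small subunit of the U2 auxiliary factor that reads the AG at the end of introns, was the member with the most counts among those present in both sums. The sum of A held 11 counts of it (0.0175%, 0.00875% to 0.0313%) and the sum of B 6 (0.011%, 0.00404% to 0.0239%), with none in the EV libraries. Its share in A was 1.59 times that in B (0.54 to 5.24), a difference not detectable with so few counts. U2AF2, which encodes its large partner, had 0 in both sums.

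PRPF31 (ENSMMUG00000022297), a tri-snRNP protein whose gene is mutated in some inherited retinal degeneration, had 8 counts in A and 4 in B. Of these, 3 in A came from the EV library and 0 in B. The ratio of the summed shares, A over B, was 1.74 (0.465 to 7.88). PRPF6, which bridges tri-snRNP parts, had 1 count in each sum. The catalytic core protein PRPF8 and the ubiquitin ligase PRPF19 were at 0 in both.

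SRSF4 (ENSMMUG00000007110) was the 1 SRSF gene with a count. It had 12 in the sum of B (0.022%, 0.0114% to 0.0384%), 0 in that of A and 0 in both EV libraries. With the 0 in A set to 3 counts, its share was 4.61-fold higher in B, leaving out the counting error of the 12. SF3B3, SNRPA1 and SRSF4 were thus each present in the sum of 1 animal alone, in opposite directions. Leaving out all 3, a choice made after their values were seen, the members had 76 counts in A and 34 in B. The ratio of shares was then 1.94 (1.28 to 3), an interval for counting error only that does not measure variation between animals. The other SRSF genes, from SRSF1 to SRSF3 and SRSF5 to SRSF12, had 0 in both sums.

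HNRNP genes had 3 counts over both sums. HNRNPL, a regulator of alternative exons, had 1 count in A, which was in the EV library. HNRNPF had 1 in A and HNRNPAB 1 in B. HNRNPA1, HNRNPA2B1, HNRNPC, HNRNPK and HNRNPU, among the most abundant nuclear RNA-binding proteins of most cells, had 0. HNRNPA1 and some others have near-identical copies in the genome. Whether reads that map to several places are missing from their counts was not tested.

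Of the DDX helicases, DDX47 and DDX54 had 4 counts in each sum, DDX51 had 2 in each and DDX56 1 in each. Equal counts were common in these sums, at 58.2% of protein-coding genes that had counts in both once the EV counts were taken off, and whether the sums have a library in common was not tested. Each of these 4 is known from the nucleolus, where DDX47, DDX51 and DDX56 act in ribosome assembly. DDX50, a nucleolar relative of DDX21, had 1 count in A and 0 in B. No DDX gene had a count in an EV library. DDX10, DDX18, DDX27, DDX49 and DDX52, which also act in ribosome assembly, were at 0 in both sums. So were DDX3X, DDX5, DDX6, DDX17 and DDX39B, which act in translation, splicing, RNA decay and export.

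DHX genes had more members with counts in A than in B, mostly at 1 count. DHX38, the helicase of the second splicing step, had 5 counts in A and 0 in B, all in the EV library of A. DHX34, a factor of nonsense-mediated decay, had 3 in A and 2 in B, outside the EV libraries. DHX58, which encodes the virus sensor LGP2, had 3 and 0. DHX16, DHX33, DHX35, DHX37, DHX40 and DHX57 had 1 count each in A, and of these only DHX35 had one in B. The count of DHX37 lay in the EV library of A. DHX30, a helicase of the mitochondrial ribosome, had 1 count in B, in the EV library, and 0 in A. DHX8, DHX9, DHX15, DHX29, DHX32 and DHX36 were at 0 in both sums. At a minimum of 2 counts, the 9 DHX genes of A would come down to these first 3.

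RBM genes also had more members with counts in A. RBM15, part of the complex that places N6-methyladenosine on RNA, had 6 counts in A and 1 in B, with a ratio of shares of 5.21 (0.632 to 240). RBM44 had 4 and 2. RBM12B had 3 and 2, all of them in the EV libraries, and was the 1 member with a count in both. RBM10, a regulator of exon skipping, had 3 and 0, with 1 of the 3 in the EV library of A. RBM7, RBM20, RBM22, RBM23 and RBM47 had 1 count each in A and 0 in B. The remaining 25 RBM genes had none.

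**Figure D2:**
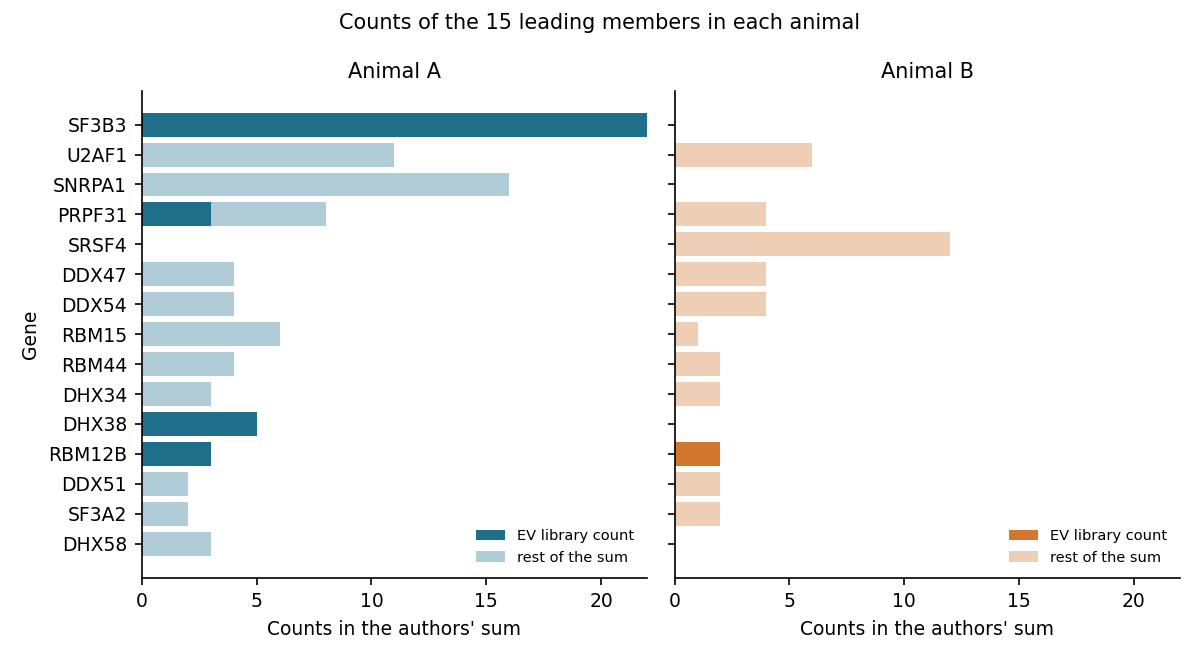
Counts of the 15 members with the most summed counts in animal A (left) and animal B (right). The dark part of each bar is the EV library and the pale part the rest of the authors' sum. SF3B3 (22), SNRPA1 (16), DHX38 (5) and DHX58 (3) have counts in A alone and SRSF4 (12) in B alone, while DDX47 and DDX54 have 4 in each.

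The EV libraries held 36 counts of members in A, 0.346% of the library (0.243% to 0.479%), and 3 in B, 0.106% (0.0218% to 0.308%). Without SF3B3 the value in A was 14 counts, or 0.135% (0.0736% to 0.226%). The counts came from 7 of the 155 genes in A (4.52%), where 2.96% of genes with a symbol and 4.14% of protein-coding genes had a count. In B they came from 2 genes (1.29%), against 1.4% and 1.95%. The EV genes of A were SF3B3 with 22, DHX38 with 5, PRPF31 and RBM12B with 3 each, and RBM10, HNRNPL and DHX37 with 1 each. Those of B were RBM12B with 2 and DHX30 with 1. The SNRP, SRSF, DDX and U2AF genes had 0 in both EV libraries.

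Read against the sums, EV counts made up 31.6% of the members' total in A (23.2% to 40.9%). In B they made up 6.52% (1.37% to 17.9%). For all protein-coding genes the values were 13.9% and 2.96%, and for all genes 16.6% and 5.21%. The higher value in A rested on SF3B3, without which it was 15.2%. In A, 5 of the 7 EV members had their whole summed count in the EV library, and in B both had. Among protein-coding genes with an EV count this was the case for 46.6% in A and 50.8% in B. No member had an EV count above its sum, which was also rare in the whole table. There it held for 19 of 796 genes with an EV count in A and 12 of 375 in B.

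With the EV counts taken off, 12 members had counts left in both sums, and 7 of these had exactly the same number in A and B. They were DDX47, DDX51, DDX54, DDX56, SF3A2, PRPF6 and DHX35. The 58.3% equal among members compares with 58.2% among protein-coding genes with counts left in both. As a shared library was not tested for, a count that appears in both sums may not be 2 separate observations.

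Other genes of splicing and RNA unwinding came from lists outside the symbol rule, and their shares are read beside the 18.7% of protein-coding genes in A and 14.8% in B. Of 56 spliceosome genes outside the symbol rule, such as those named SNRNP and LSM, 4 had a count in the sum of A (7.14%) and 6 in that of B (10.7%). SART1, a tri-snRNP protein, led them with 30 counts in A and 0 in B, followed by LSM6 with 2 and 3 and GPATCH1 with 2 and 0. Of 60 further splicing regulators, 12 were detected in each sum (20%), led by the neuronal factor NOVA2 with 0 in A and 23 in B, TRA2A with 3 and 2 and RBFOX3 with 3 and 1. Of 22 other RNA helicases, 5 were detected in A (22.7%) and 3 in B (13.6%), led by HELZ2 and TDRD9 with 3 in each sum. In the EV libraries these lists had 0, 1 and 0 counts in A and 1, 1 and 2 in B.

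Other gene sets give the scale of these shares. Of 13 housekeeping genes, 1 had a count in each sum, YWHAZ with 1 and 1. RAB, VPS and SNX trafficking genes were detected for 28 of 133 in A (21.1%) and 23 in B (17.3%). Mitochondrial ribosome and import genes were detected for 8 of 92 (8.7%) and 3 (3.26%), and myosin, kinesin and dynein motor genes for 31 of 83 (37.3%) and 26 (31.3%). The splicing and helicase genes, at 20.6% and 10.3%, lay between the last 2 sets in both animals. No test of these differences was run.

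**Figure D3:**
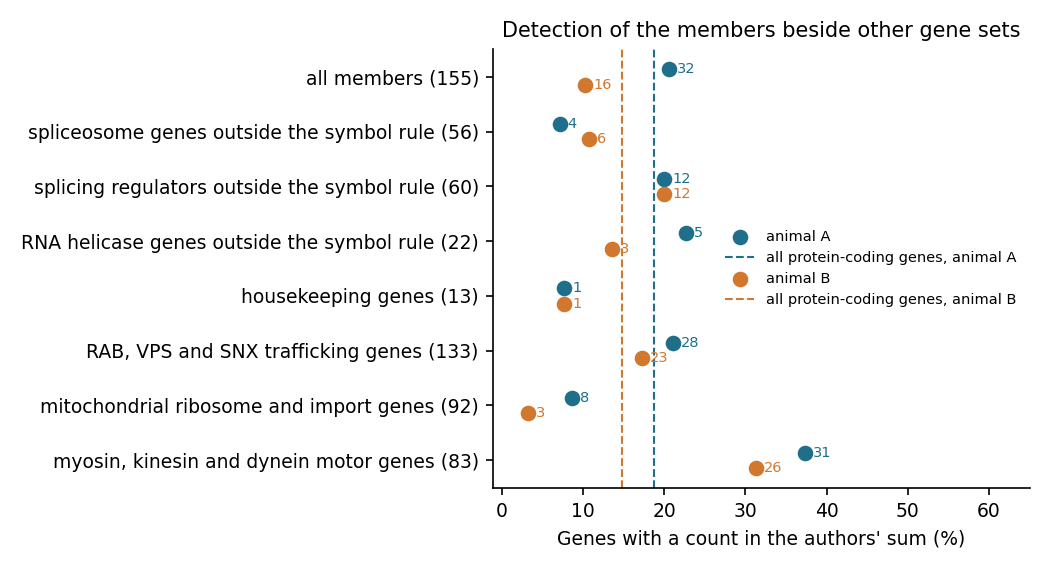
Percent of genes with at least 1 count in the authors' sum of animal A (blue) and animal B (orange), for the members and 7 other gene sets, with the number of genes in brackets and the number detected beside each point. Dashed lines mark all protein-coding genes. The members, at 20.6% and 10.3%, lie between the mitochondrial ribosome set (8.7% and 3.26%) and the motor gene set (37.3% and 31.3%).

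Of 19 members that the rule for named genes picked, 11 have a RefSeq gene whose span overlaps theirs, and for 4 of them it is a protein-coding one. These pairs are DDX54 with CFAP73, DHX38 with TXNL4B, RBM12B with CIBAR1 and DDX51 with NOC4L. The partners had 0 counts in both sums for CFAP73 and TXNL4B, 1 and 0 for CIBAR1 and 2 and 1 for NOC4L. The sources used here do not give how reads in shared stretches were assigned, and the counts of these members are uncertain to that extent.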

How the data were processed

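Per the labels' protocols, a Norgen kit for plasma or serum gave the total RNA and a QIAseq UPXome kit the libraries. The submitters' processing notes name STAR as the aligner. Not given in the sources used here were its version, the genome build, the annotation, the counting step and any collapse of molecular identifiers. The authors deposited raw counts per gene for both EV libraries (4642 genes) and whole-number summed counts per gene and animal (35432 genes). The summed table is named as sense counts and the EV table is not, so the EV share of a sum may mix ways of counting. Genes absent from the EV table were set to 0. The authors also deposited input reads as counts per library. Gene counts of single lipoprotein and protein libraries were not used here.

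Symbols came from a table of Ensembl identifiers. Protein-coding status and overlaps, by symbol, came from RefSeq assembly T2T-MMU8v2.0, whose coordinates were not used otherwise. Detection was a count of at least 1. Intervals were Clopper-Pearson at 95%, and ratios of shares used the conditional binomial distribution. Genes at 0 were set to 3 counts for limits and for their ratios of shares. Such ratios leave out the counting error of the other count, so they are not 95% bounds. Thinning used the exact hypergeometric expectation. The calculations were tested on simulated data. Python 3.11.15, pandas 2.3.3 and SciPy 1.17.1 were used.

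Named members were the 15 with the most summed counts (ties in order of symbol), up to 2 per subfamily with at least 5 counts over both sums, each with an EV count, and core genes at 0. From each list outside the symbol rule up to 3 leading genes were named. Other members with counts were named to account for all, after their values were seen. The members and lists were chosen with earlier results of these data known, and the 3 sets of trafficking, mitochondrial and motor genes after the files were seen. Alternatives were other count minimums, thinning, other member rules, leaving out an animal and leaving out the leading gene.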

Additional observations from a re-analysis of the deposited data

How the results depend on the processing

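Counts of detected members depended on the minimum. From 2 counts, 16 members were detected in the sum of animal A, 10 in that of B, 4 in the EV library of A and 1 in that of B. From 5 counts these were 6, 2, 2 and 0. The shares of protein-coding genes at both minimums were not worked out. Of the genes detected in the sum of A, 50% of members and 58.5% of protein-coding genes had exactly 1 count. In B these were 37.5% and 60.1%, so a smaller part of the detected members fell away at 2 counts. The lower share of members than of protein-coding genes in B, described at a minimum of 1 count, may thus not hold at 2. Thinning the EV library of A to the total of B left an expected 3.85 of its 7 genes, because fewer counts were drawn. The numbers detected in the sums stayed within 1.5 times of those reported when SNRNP genes were added, when symbols with several identifiers were left out, when the sum of A was thinned and, in an alternative added after the data were seen, when the EV counts were taken off (27 in A and 14 in B). Members detected in either sum numbered 16 to 32 when 1 animal was left out, and in either EV library 2 to 7. The EV share of the members' summed counts in A was 15.2% without SF3B3. As a percent of counts in genes with a symbol, the members held 0.31% in A and 0.151% in B, and without SF3B3 they held 0.147% of all counts in A. Thinning does not apply to animal B, which had the smaller totals. No paired analysis was possible because each animal had 1 column of each kind and no test between groups was run. With 1 to 22 counts per detected gene, depth limits every value for a single gene.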

Other observations

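Features named for the RNA partners of these proteins had few counts, as had other named features that are not protein-coding. Of 24186 genes with a symbol, 3205 had a count in the sum of A and 2538 in that of B. The 16836 protein-coding ones held 3152 and 2498 of these. Among features named for the spliceosomal small nuclear RNAs, which were chosen after the values were seen, 131 named U1, 137 named U2, 96 named U4 and 30 named U5 had 0 counts in both sums and both EV libraries. Of 1209 features named U6, 1 had 6 counts in the sum of animal B and none had a count in that of A. The 211 features named U7, the small nuclear RNA of histone message processing, had 0. These are multi-copy features, and how reads that map to several places were counted was not stated.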
